A study of Sus scrofa with 12 samples.

Results

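The genes of cell division and DNA replication described here are 46 genes listed by symbol, from the licensing of replication origins to the exit from mitosis. The list was chosen with earlier results of these data known. Of these, 38 were found by Ensembl pig gene symbol among the 19681 genes of the files, of which 13998 have a symbol. MCM5, GINS2, PCNA, RRM2, CCNA2, AURKA, CDC20 and MKI67 were not found by symbol and are not analysed here.

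Expression was measured by RNA sequencing in 12 libraries of the pig, 3 biological replicates (A, B and C) in each of 4 groups. IEC2, IEC4 and IEC12 are porcine induced pluripotent stem (iPS) cells on days 2, 4 and 12 of induction towards endothelial cells. IEC2 cells had received CHIR99021, an inhibitor of the kinase GSK3, and IEC4 cells had afterwards received BMP4, FGF2 and VEGF. IEC12 cells had then been kept in the endothelial growth medium EGM-2 with added VEGF, and were harvested without sorting for CD31. AOC is an established porcine endothelial cell line, which serves as the endothelial reference and is another line than the induced cells, so that line and cell type cannot be told apart in any comparison with it. Undifferentiated iPS cells and sorted cells are not analysed here. Whether the replicates are separate inductions is not stated beyond the word biological, so the p-values measure the spread between these libraries.

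A dividing cell copies its DNA once and then separates the copies. In G1, D-type cyclins with CDK4 and CDK6 inactivate the retinoblastoma protein, which frees E2F factors to switch on the genes of replication. MCM proteins are loaded on origins with the help of CDC6 and CDT1, ribonucleotide reductase and thymidylate synthase supply nucleotides, and cyclin B with CDK1 later starts mitosis, in which kinetochores, spindle motors and the checkpoint kinases BUB1 and BUB1B act. Transcripts of the replication genes usually peak around S phase and those of the mitotic genes in G2 and M, and pluripotent cells are known for fast cycles with a short G1.

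Values are FPKM, fragments scaled to transcript length and to the fragments mapped in the library, so levels of different genes can be compared per length. The FPKM totals of the libraries were 335976 to 352845 on day 2, 348674 to 379368 on day 4, 387726 to 457194 on day 12 and 426839 to 441757 in the AOC line. Numbers of reads are unknown. The relative depth estimated from steps of low values was 0.898 to 1.23 in 11 libraries and 0.669 in IEC12 replicate A. For that library alone a reading 2 times as high, 1.34, was also allowed for. Of the ratios used 37% lay on the steps, so the estimate is rough. Fold changes are differences of means of log2(FPKM + 1), which understates changes of low genes, and a gene was called higher or lower at a Benjamini-Hochberg adjusted p under 0.05 by limma.

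The labels call the IEC cells induced endothelial, and their endothelial markers were checked. CDH5, the junctional cadherin of endothelial cells, was listed at 0 in all 9 IEC libraries and lay at 103 to 137 FPKM in AOC. The 7 endothelial markers found, of 10 listed, reached a sum of 260 to 379 FPKM in the AOC libraries. Their sum was 2.92 to 5.14 on day 2, 1.13 to 1.42 on day 4 and 0.0962 to 0.237 on day 12. KDR, the VEGF receptor, went the other way between AOC and day 2, at 2.42 to 3.99 FPKM in IEC2 against 1.31 to 1.46 in AOC (-0.72, adjusted p = 0.00235), and was at 0 to 0.302 on days 4 and 12. The other 6 markers found were under 1 FPKM in all 9 IEC libraries, which are called by their day here. The 6 epithelial markers summed to 526 to 1495 FPKM in IEC4, against 108 to 144 in IEC2, 41.8 to 86.6 in IEC12 and 2.25 to 4.05 in AOC, and the highest IEC4 sum was that of replicate C. The 2 pluripotency markers found, of 7 listed, summed to 0 to 0.155 FPKM in IEC2 and 3.3 to 6.39 in IEC4. Their sum was 0.248 to 1.52 in IEC12 and 0 to 0.0462 in AOC. The 2 did not move alike. LIN28A had means of 4.27 FPKM in IEC4 and 0.269 in IEC12, and NANOG had means of 0.35 and 0.732. The 6 mesoderm markers found, of 7, summed to 3.74 to 5.21 FPKM in IEC2 and 7.49 to 10.7 in IEC4. In IEC12 they summed to 1.95 to 2.9 and in AOC to 0.419 to 0.511. From IEC2 to IEC4 HAND1 rose from 0 to a mean of 7.65 FPKM. PDGFRA fell in the same step from 4.24 to 0.586 (-1.735, limma adjusted p = 0.000341), and MIXL1 and EOMES were at 0 in every library. The 9 smooth muscle and fibroblast markers summed to 80.3 to 112 FPKM in IEC2 and 50.2 to 62.7 in IEC4. Their sums were 61.2 to 79.3 in IEC12 and 9.81 to 20.9 in AOC. COL3A1 made up most of the IEC sums, with means of 93.6, 45.6 and 70.8 FPKM in IEC2, IEC4 and IEC12. ACTA2 and COL1A1 went against the sum and were called higher in IEC4 than in IEC2, by 1.81 and 2.12. The mean of ACTA2 was highest in AOC, at 7.49 FPKM, where COL3A1 was at 5.56. The sums of these lists moved with the stages, though not all their members moved alike, and their part in the results was not tested. In bulk libraries fewer dividing cells and less transcript per dividing cell cannot be told apart.

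The member genes were expressed throughout. Of the 38 genes, 32 had an FPKM of at least 1 in all 12 libraries and 19 had at least 10 in all 12. CDK2 was under 1 in all 12 libraries, at 0 to 0.0678 FPKM, and 5 other genes crossed 1. Together the 38 genes made up 0.329 to 0.343% of the FPKM total in IEC2, 0.317 to 0.41% in IEC4, 0.411 to 0.639% in IEC12 and 0.391 to 0.429% in AOC. By mean FPKM the highest group was IEC12 for 16 genes, AOC for 15, IEC4 for 7 and IEC2 for 0, and the lowest was IEC2 for 15, IEC4 for 12, AOC for 6 and IEC12 for 5.

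**Figure D1:**
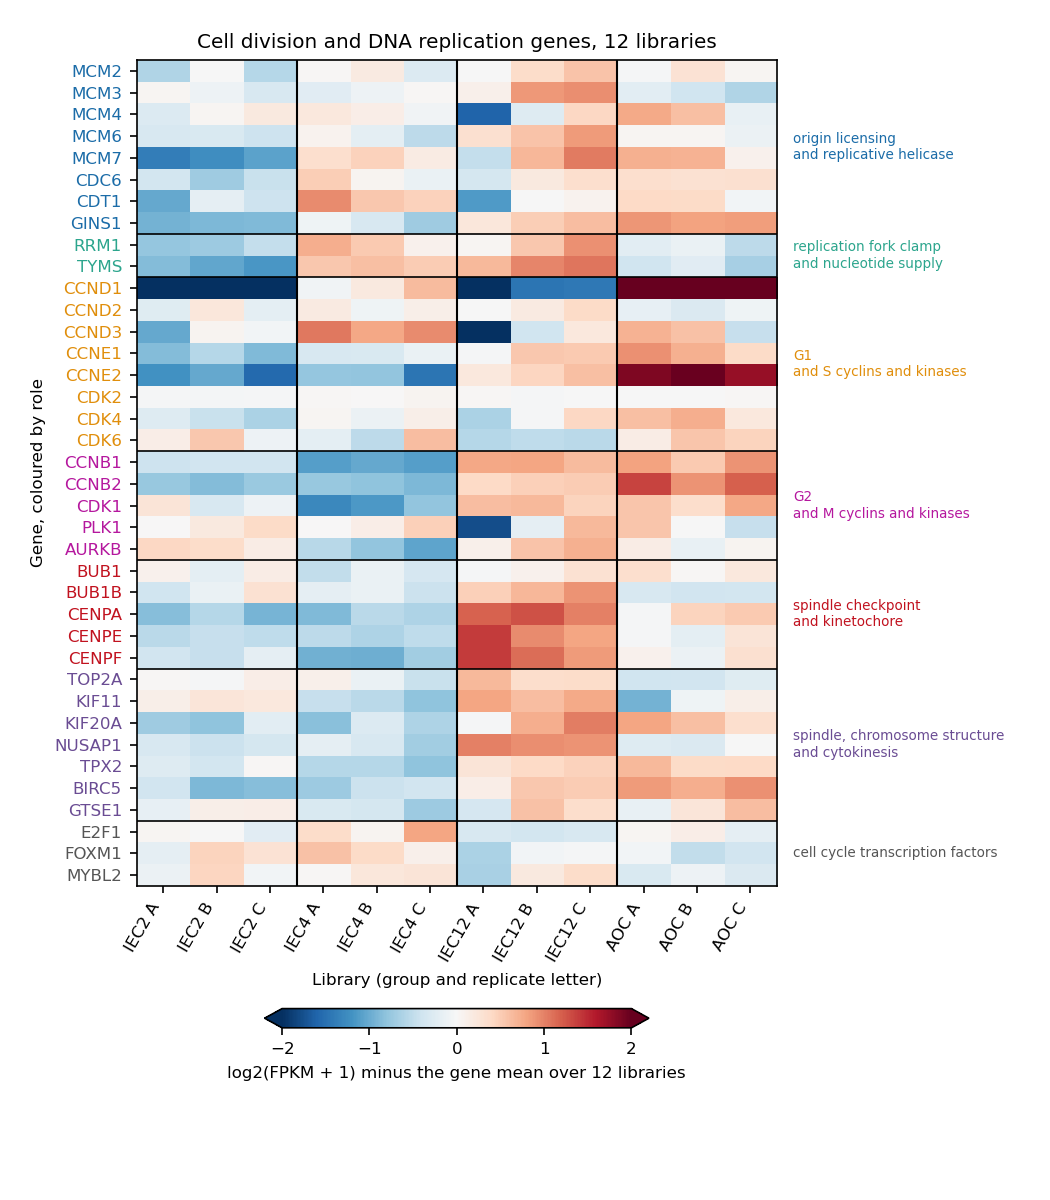
Each row is 1 of the 38 genes, ordered by role, and each column 1 of the 12 libraries. Colour gives log2(FPKM + 1) minus the mean of the gene over the 12 libraries, and colours stop at the ends of the scale. Kinetochore and spindle genes are high in IEC12, CCND1 and CCNE2 in AOC, and the column of IEC12 replicate A is low at MCM4, CCND3 and PLK1.

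IEC12 replicate A stood apart from the other IEC12 libraries. It was the lowest of its group at 28 of the 36 genes compared, with a median deviation of -0.26 on the log2 scale against -0.08 over all genes, and replicate C was the highest at 24. For PLK1, the kinase that drives centrosome maturation and mitotic exit, FPKM was 6.09 in replicate A, 20.4 in B and 37 in C. Replicate A was the highest of its group at 5 of the 36, which were CENPE, CENPF, TOP2A, KIF11 and NUSAP1, named after their values were seen. Where leaving out this library changed a call between consecutive days, or between AOC and IEC12, on a gene given below by library, the value without it or the loss of the call is given there.

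From day 2 to day 4 the member genes were not called more often than genes in general. The called genes of replication were higher and the called genes of mitosis lower. In IEC4 against IEC2, 12 of 35 tested genes were called, 6 higher (17.1%) and 6 lower (17.1%). Over the 10542 genes tested 24.8% were higher and 12.5% lower (37.3% in either direction). The higher genes were MCM7, CDT1, GINS1, RRM1, TYMS and CCND1, and the lower ones CCNB1, CDK1, AURKB, CENPF, KIF11 and TPX2. The calls of GINS1, CENPF and TPX2 were each lost in 5 of 6 fits with a library left out, and that of CDT1 in 3 of 6. The median change of the 35 genes was 0.10, against 0.20 over all genes. Groups did not overlap at 10 higher and 6 lower genes, where the shares over all genes were 35.6% and 17.8%. CDK2, GTSE1 and E2F1 did not pass the filter on low values and were not tested between stages.

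From day 4 to day 12 the mitotic genes rose. In IEC12 against IEC4, 20 of 35 genes were higher and 3 lower, with 17.3% higher and 26.9% lower over all genes tested (44.2% in either direction). All 5 tested genes of the spindle checkpoint and kinetochore, all 6 of the spindle, chromosome structure and cytokinesis and 4 of 5 G2 and M cyclins and kinases were higher. Of the 8 genes of origin licensing and the replicative helicase 3 were higher and 1 lower, of the 7 G1 and S cyclins and kinases 2 were higher and 2 lower, and of RRM1 and TYMS 0 were called, with 1 higher at an unadjusted p under 0.05. The median change was 0.62 against -0.15 over all genes. Groups did not overlap at 21 higher and 4 lower genes, against 22.1% and 34.3% over all genes. Without IEC12 replicate A, 22 genes were higher and 2 lower. Over all fits with 1 library left out, 17 to 22 were higher and 1 to 5 lower. With the FPKM totals made equal the higher genes were 15 and the lower 3.

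Over the whole course, IEC12 against IEC2, 22 of 35 genes were higher and 0 lower by limma, with 24.2% higher and 19.3% lower over all genes (43.6% in either direction), and 1 gene was lower at an unadjusted p under 0.05. The median change was 0.75 against 0.03. Groups did not overlap at 23 higher and 1 lower genes, against 29.9% and 24.4% over all genes. With the FPKM totals made equal the higher genes were 14 and the lower 1. The calls of MCM2, MCM3, CCND1, CDK1 and TPX2 were each lost when IEC12 replicate B, among others, was left out. The 3 stage comparisons share libraries and are given side by side, not as support for each other.

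**Figure D2:**
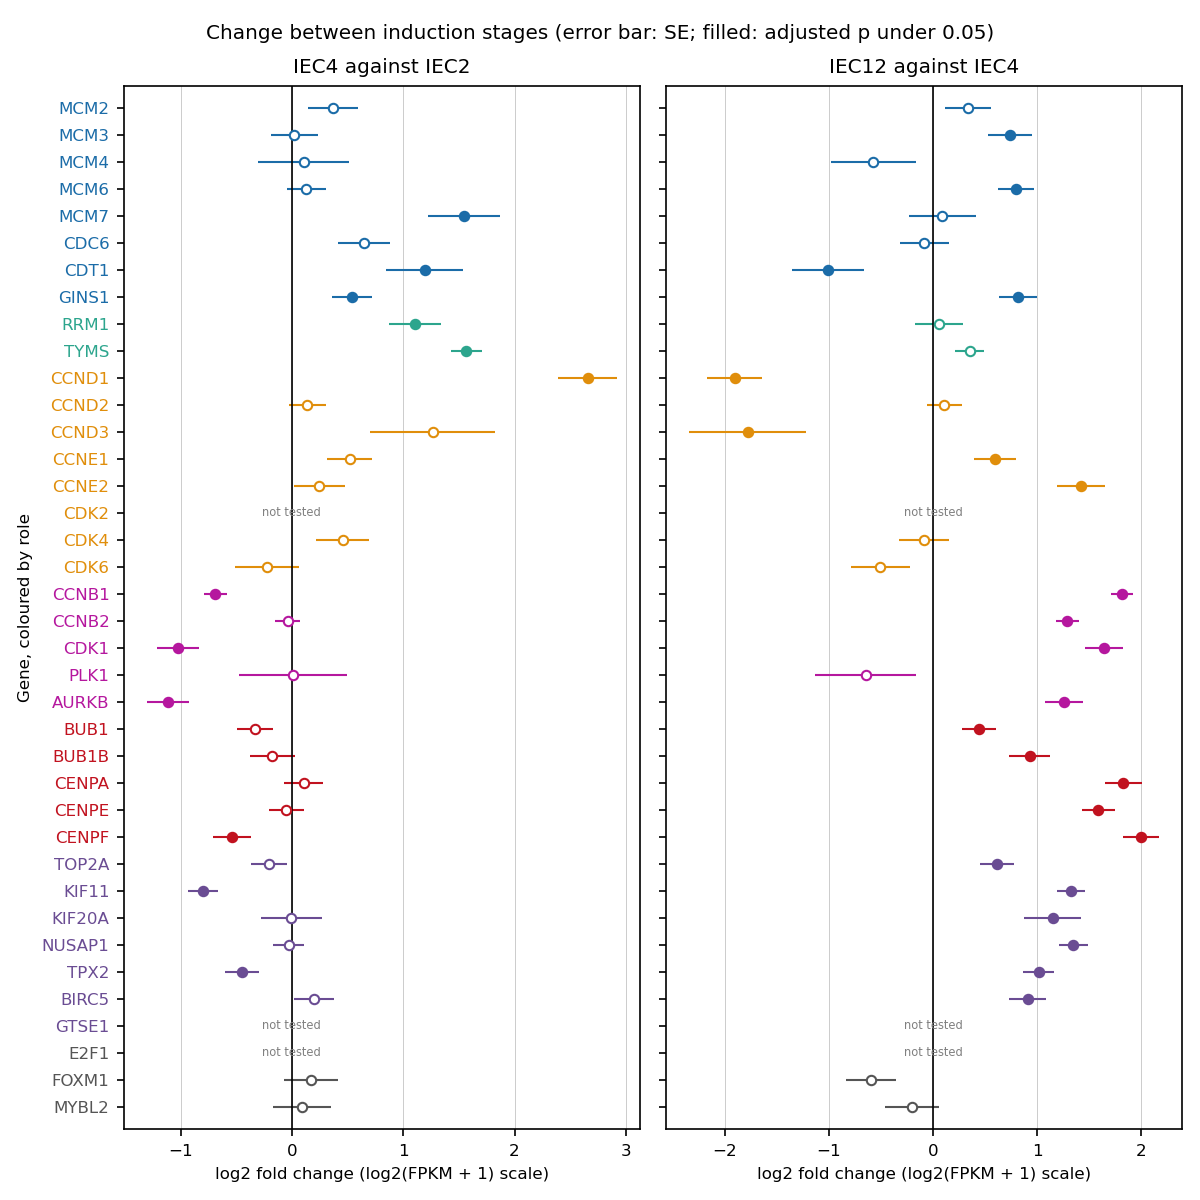
Points give the log2 fold change of each gene on the log2(FPKM + 1) scale, with the limma SE as bars, for IEC4 against IEC2 on the left and IEC12 against IEC4 on the right, and filled points passed an adjusted p of 0.05. On the left the filled points of replication genes and CCND1 lie right of 0 and those of mitotic genes left of it. On the right 20 of 35 points are filled and right of 0.

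MCM7, a subunit of the replicative helicase (chr3:8005890-8014047 in susScr11), was at 9.64, 10.8 and 12.3 FPKM in IEC2 A, B and C, at 34, 37.4 and 30.1 in IEC4, at 19, 43.3 and 56.1 in IEC12, and at 44.8, 44.1 and 28.5 in AOC. All 9 other libraries lay above the 3 of IEC2. The change from IEC2 to IEC4 was 1.55 (SE 0.32, limma adjusted p = 0.00467), and that from IEC4 to IEC12 was 0.09 (SE 0.32, adjusted p = 0.837), which without IEC12 replicate A was 0.53 (adjusted p = 0.0336).

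CDT1 loads the MCM complex on origins and is kept in check by geminin. Its FPKM was 0.291, 1.34 and 0.975 in IEC2, 4.09, 2.85 and 2.63 in IEC4, 0.203, 1.63 and 1.77 in IEC12 and 2.46, 2.45 and 1.55 in AOC. IEC4 lay above all IEC2 and IEC12 libraries, at a level near the filter. CDT1 rose by 1.19 (SE 0.35, adjusted p = 0.0227) and then fell by 1.01 (SE 0.35, adjusted p = 0.0387). The rise was not called without IEC2 replicate A or without IEC4 replicate A or B, and the fall not without IEC12 replicate A or without any 1 of the IEC4 replicates.

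GINS1, part of the helicase complex that travels with the fork, was at 9.17, 9.48 and 9.59 FPKM in IEC2, 17.4, 14.8 and 11 in IEC4, 22, 26.6 and 28.9 in IEC12 and 35.3, 33.2 and 34 in AOC. The 4 groups did not overlap and stood in that order. It was the 1 member called higher at both steps, by 0.54 (SE 0.18, adjusted p = 0.0409) and 0.82 (SE 0.18, adjusted p = 0.00597), but the first step was lost in 5 of 6 fits with 1 library left out. In AOC against IEC12 the difference was 0.40 (adjusted p = 0.0483), lost in 5 of 6 such fits, that without IEC12 replicate A among them.

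MCM3 and MCM4 are further helicase subunits. MCM3 was at 59.5, 54.3 and 46.3 FPKM in IEC2, 49.3, 53.9 and 59 in IEC4, 62.7, 107 and 111 in IEC12 and 50.1, 43.8 and 38.1 in AOC, and was higher in IEC12 than in IEC4 by 0.74 (SE 0.21, adjusted p = 0.019). This call was lost without IEC4 replicate A or B or without IEC12 replicate B or C. MCM4 was at 18.9, 23.6 and 26.7 in IEC2, 27, 25.3 and 21.9 in IEC4, 6.92, 19.1 and 31.2 in IEC12 and 39.8, 35.7 and 20.9 in AOC. The IEC12 libraries of MCM4 spanned those of IEC2 and IEC4, and its change of -0.57 (SE 0.41, adjusted p = 0.282) from IEC4 was -0.01 without IEC12 replicate A, and without IEC12 replicate C it was called lower at -1.02 (adjusted p = 0.0338). Of the others in this role, MCM6 was called higher in IEC12 than in IEC4, at 227 to 327 FPKM against 126 to 190. With equal FPKM totals MCM6 was not called. MCM2, at 7.73 to 18.5 FPKM over the 12 libraries, and CDC6, at 4.35 to 11.4, were called at neither step.

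Both genes of nucleotide supply rose by day 4. TYMS, thymidylate synthase (chr6:105642730-105660279 in susScr11), was at 53.6, 47.5 and 43.3 FPKM in IEC2, 143, 149 and 140 in IEC4, 154, 195 and 208 in IEC12 and 74.4, 84 and 61.8 in AOC. The groups did not overlap. The change from IEC2 to IEC4 was 1.57 (SE 0.14, adjusted p = 4.14e-05), or 2.96-fold on the log2(FPKM + 1) scale, and that to IEC12 was 0.35 (SE 0.14, adjusted p = 0.0655). The latter was called higher without IEC12 replicate A, at 0.48 (adjusted p = 0.0142), and with median-of-ratios scaling, at 0.58 (adjusted p = 0.0145). RRM1, the large subunit of ribonucleotide reductase, was at 94.5, 98 and 116 in IEC2, 269, 234 and 172 in IEC4, 167, 236 and 307 in IEC12 and 141, 148 and 112 in AOC. RRM1 rose by 1.11 (SE 0.23, adjusted p = 0.00474) by day 4, and IEC4 and IEC12 overlapped.

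**Figure D3:**
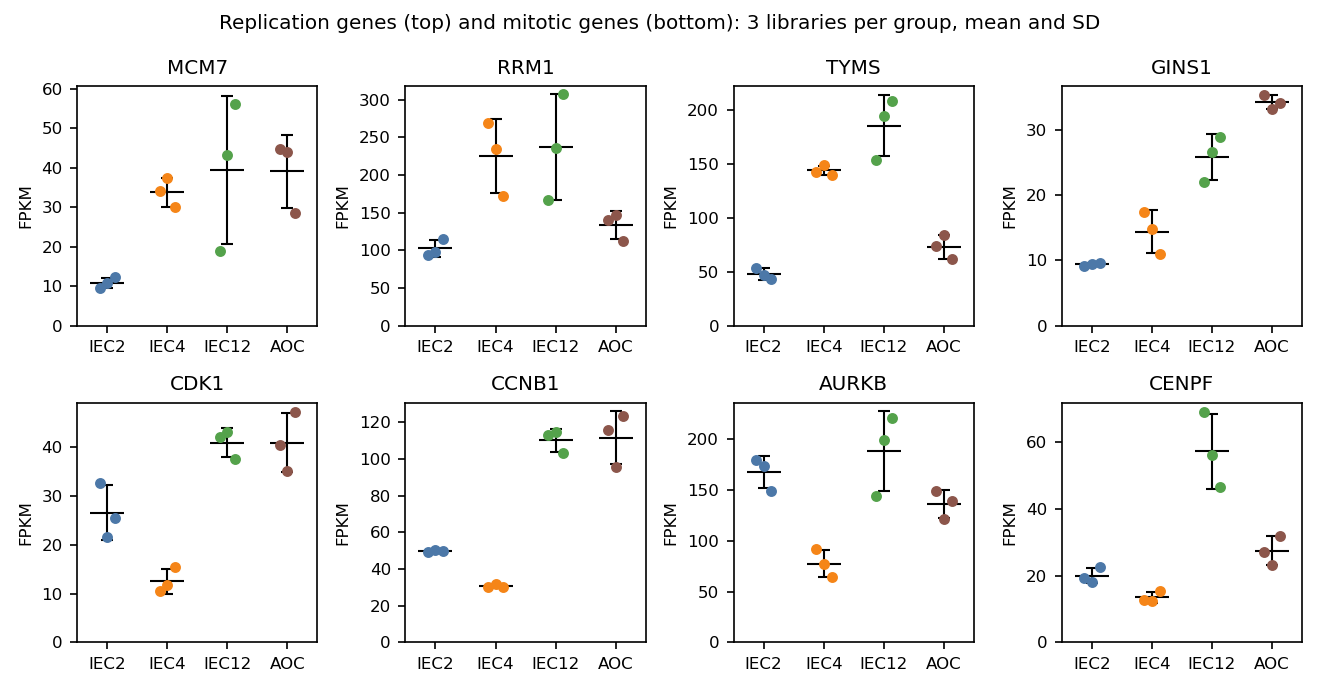
FPKM of 4 replication and nucleotide genes and 4 mitotic genes in the 12 libraries, by group, on panels of their own scale, with points for libraries and the mean and SD of the 3. MCM7, RRM1, TYMS and GINS1 are lowest in IEC2, and CDK1, CCNB1, AURKB and CENPF are lowest in IEC4.

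Among the G1 genes, CCND1 (chr2:3621242-3633380 in susScr11), the D-type cyclin that growth factors induce, moved the most. Its FPKM was 0.246, 0.183 and 0.765 in IEC2, 5.95, 7.33 and 10.3 in IEC4, 0.749, 1.63 and 1.69 in IEC12 and 81.5, 117 and 106 in AOC. IEC4 stood above both other days without overlap, and AOC above all IEC libraries. CCND1 rose by 2.66 (SE 0.26, adjusted p = 7.25e-05) by day 4 and fell by 1.91 (SE 0.26, adjusted p = 0.000521) by day 12.

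CCND3, another D-type cyclin, was at 12.9, 28.3 and 26.2 FPKM in IEC2, 57.6, 47.3 and 53.2 in IEC4, 4.4, 20.4 and 31.7 in IEC12 and 44.5, 41.5 and 19.6 in AOC. It fell by 1.78 (SE 0.56, adjusted p = 0.0284) from IEC4 to IEC12, and without IEC12 replicate A by 1.02 (adjusted p = 0.029). The call was lost without any 1 of the IEC4 replicates. CCND2 lay at 31.5 to 50.8 FPKM over all 12 libraries and was called in no comparison, so that per length it was the leading D-type cyclin in IEC2 and IEC12 by mean, CCND3 in IEC4 and CCND1 in AOC.

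E-type cyclins activate CDK2 at the start of S phase. CCNE2 (chr4:41802090-41821870 in susScr11) was at 5.12, 5.93 and 3.82 FPKM in IEC2, 7.25, 7.14 and 4.11 in IEC4, 15.3, 17.9 and 20.3 in IEC12 and 50.7, 54.8 and 46.2 in AOC. IEC2 and IEC4 overlapped, and IEC12 and AOC each stood above the groups before. CCNE2 rose by 1.42 (SE 0.23, adjusted p = 0.00121) from IEC4 to IEC12. CCNE1 was at 1.13 to 1.64 FPKM in IEC2, 2.12 to 2.58 in IEC4, 2.86 to 4.7 in IEC12 and 4.12 to 6.36 in AOC, and its rise of 0.60 from IEC4 to IEC12 (adjusted p = 0.0372) was lost in 5 of 6 fits with 1 library left out. CDK4, at 13.7 to 36.8 FPKM over all libraries, and CDK6, at 3.14 to 8.42, did not pass the test between stages.

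**Figure D4:**
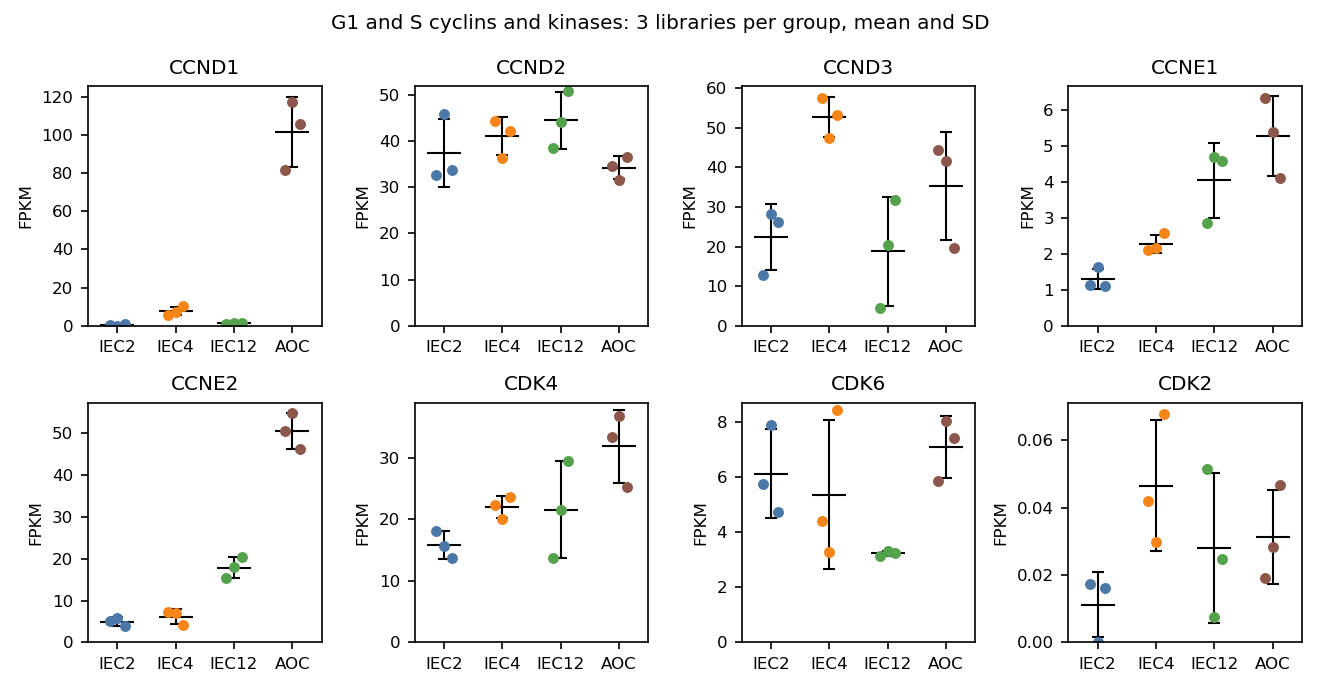
FPKM of the 8 G1 and S cyclins and kinases in the 12 libraries, by group, on panels of their own scale, with points for libraries and the mean and SD of the 3. CCND1 and CCNE2 are highest in AOC, CCND3 is highest in IEC4, CCND2 lies at 31.5 to 50.8 in every group, and CDK2 lies at 0 to 0.0678.

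Of the 5 G2 and M cyclins and kinases, 3 fell by day 4, CCNB1, CDK1 and AURKB. CCNB1 (chr16:47338239-47348385 in susScr11), the cyclin of the mitotic kinase, was at 49.3, 50.2 and 50 FPKM in IEC2, 30.1, 31.8 and 30 in IEC4, 113, 114 and 103 in IEC12 and 116, 95.5 and 124 in AOC. IEC4 lay below IEC2, and IEC12 above both, with no overlap. CCNB1 fell by 0.69 (SE 0.11, adjusted p = 0.000941) and then rose by 1.81 (SE 0.11, adjusted p = 5.56e-06).

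CDK1, its catalytic partner, was at 32.7, 21.7 and 25.4 FPKM in IEC2, 10.5, 11.8 and 15.4 in IEC4, 42.2, 43.1 and 37.5 in IEC12 and 40.4, 35.1 and 47.3 in AOC. It fell by 1.02 (SE 0.19, adjusted p = 0.00234) and rose by 1.64 (SE 0.19, adjusted p = 0.000179). AURKB, the kinase of the chromosomal passenger complex, was at 179, 174 and 149 in IEC2, 91.4, 77 and 64.2 in IEC4, 144, 199 and 221 in IEC12 and 149, 121 and 139 in AOC. AURKB fell by 1.11 (SE 0.19, adjusted p = 0.00145) and rose by 1.26 (SE 0.19, adjusted p = 0.000727), and IEC12 overlapped with IEC2.

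CCNB2 did not fall by day 4. Its FPKM was 31.2, 28.8 and 31.5 in IEC2, 31, 30 and 28.1 in IEC4, 71, 75 and 76.2 in IEC12 and 138, 100 and 123 in AOC, and it rose by 1.29 (SE 0.11, adjusted p = 4.4e-05) from IEC4 to IEC12. PLK1 was at 23.4, 26.9 and 30.8 in IEC2, 23.4, 25.7 and 32.9 in IEC4 and 34.8, 23.1 and 16.7 in AOC, within the spread of its IEC12 libraries. Its change of -0.65 (SE 0.48, adjusted p = 0.301) from IEC4 to IEC12 was 0.02 without IEC12 replicate A, and without IEC12 replicate C it was called lower at -1.19 (adjusted p = 0.0316).

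At the kinetochore, CENPF (chr9:128948386-129012241 in susScr11), a large outer kinetochore protein, was at 19.2, 18.2 and 22.5 FPKM in IEC2, 12.6, 12.5 and 15.4 in IEC4, 69.1, 56.2 and 46.6 in IEC12 and 27.1, 23.4 and 32.1 in AOC. IEC12 was above all other libraries. The rise from IEC4 was 2.00 (SE 0.17, adjusted p = 4.4e-05), while the fall by 0.53 before it (SE 0.17, adjusted p = 0.0345) was lost in 5 of 6 fits with 1 library left out.

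CENPA, the histone H3 variant that marks centromeres, was at 2.75, 3.57 and 2.56 FPKM in IEC2, 2.69, 3.68 and 3.4 in IEC4, 14.3, 15.4 and 12.6 in IEC12 and 5.71, 8.22 and 8.73 in AOC. CENPE, the kinetochore motor, was at 24.3, 25.6 and 24.8 in IEC2, 24.6, 22.8 and 24.7 in IEC4, 95, 69.4 and 61.9 in IEC12 and 34.8, 30.9 and 42.8 in AOC. Both overlapped between IEC2 and IEC4 and were highest in IEC12 without overlap. They rose from IEC4 to IEC12 by 1.83 (CENPA, SE 0.18, adjusted p = 8.85e-05) and 1.59 (CENPE, SE 0.16, adjusted p = 0.0001).

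The checkpoint kinases changed less. BUB1B was at 13.6, 16.5 and 22.8 FPKM in IEC2, 15.9, 16.5 and 13.2 in IEC4, 25.6, 29.3 and 34.9 in IEC12 and 14.4, 13.8 and 14 in AOC, and rose by 0.93 (SE 0.20, adjusted p = 0.00514) from IEC4. BUB1 was at 23.6, 19.1 and 24.8 in IEC2, 15.4, 20.1 and 17.4 in IEC4, 21.7, 23.5 and 27.6 in IEC12 and 28.1, 22.6 and 25.7 in AOC. Its IEC12 libraries overlapped with those of IEC2, and the rise of 0.44 (SE 0.16, adjusted p = 0.0497) from IEC4 lay at the limit and was lost in 5 of 6 fits with 1 library left out.

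Among spindle genes, KIF11, the motor that separates the spindle poles, was at 21.6, 23.5 and 23.1 FPKM in IEC2, 14, 13.2 and 10.8 in IEC4, 34.8, 30.7 and 34 in IEC12 and 9.82, 18.6 and 21.5 in AOC. It fell by 0.80 (SE 0.14, adjusted p = 0.00169) and rose by 1.32 (SE 0.14, adjusted p = 0.000115), and the 3 days did not overlap. TPX2, which activates Aurora A at the spindle, was at 18.8, 17.4 and 23 in IEC2, 14.9, 15 and 12.4 in IEC4, 27.1, 30.2 and 31.3 in IEC12 and 35.9, 29.7 and 30.1 in AOC. TPX2 rose by 1.02 (SE 0.15, adjusted p = 0.000752) from IEC4, and its fall by 0.45 before (adjusted p = 0.0403) was lost in 5 of 6 fits with 1 library left out.

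NUSAP1, which bundles spindle microtubules, was at 111, 102 and 108 FPKM in IEC2, 122, 110 and 84.8 in IEC4, 280, 265 and 259 in IEC12 and 115, 113 and 137 in AOC. It rose by 1.35 (SE 0.14, adjusted p = 0.000119) from IEC4 to IEC12, and the 9 libraries of the other groups lay at 84.8 to 137. TOP2A, the topoisomerase that untangles sister chromatids, was at 30.1, 29.1 and 32.5 in IEC2, 31.9, 26.9 and 21.4 in IEC4, 47, 37.9 and 38.6 in IEC12 and 22.3, 22.3 and 24.7 in AOC. It rose by 0.62 (SE 0.16, adjusted p = 0.0137), which with equal FPKM totals was not called. KIF20A, a motor of cytokinesis, and BIRC5, which belongs to the chromosomal passenger complex, also rose, from 22.3 to 33.7 and 45.1 to 57.5 FPKM in IEC4 to 40.1 to 84.1 and 83 to 110 in IEC12.

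Of the transcription factors of the list, FOXM1 and MYBL2 did not pass the test between stages, and E2F1 was not tested. FOXM1, which activates G2 and M genes, was at 0.885, 1.88 and 1.6 FPKM in IEC2, 2.2, 1.78 and 1.28 in IEC4, 0.375, 1.05 and 1.09 in IEC12 and 1.04, 0.508 and 0.636 in AOC. MYBL2, the B-Myb factor, was at 14.3, 21.2 and 14.9 in IEC2, 15.9, 18.4 and 18.8 in IEC4, 9.54, 17.9 and 20.4 in IEC12 and 12.3, 14.5 and 12.6 in AOC. From IEC4 to IEC12 FOXM1 differed by -0.60 (SE 0.24, adjusted p = 0.0708) and MYBL2 by -0.20 (SE 0.26, adjusted p = 0.553), while 15 of the 16 tested genes of the 3 mitotic roles rose. E2F1 was at 0.0516 to 1.35 FPKM over the 12 libraries and GTSE1, a regulator of p53 in G2, at 0.0214 to 1.6.

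Between the endothelial line AOC and IEC12, the shares of genes called were near those over all genes tested. In AOC against IEC12, 7 of 36 genes were higher (19.4%) and 12 lower (33.3%). Over the 11053 genes tested 22.4% were higher and 36.2% lower (58.5% in either direction). The median change was 0.01 against -0.21 over all genes. Groups did not overlap at 6 higher and 12 lower genes, against 25% and 41.3% over all genes. The split of calls depended on scaling. Median-of-ratios scaling, which moved the median of all genes to -0.02, gave 13 higher and 10 lower, and equal totals gave 4 and 11. Without IEC12 replicate A, 4 were higher and 14 lower.

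Of the 7 higher genes in AOC, 4 were G1 and S cyclins and kinases, out of 7 of that role tested, and the others were GINS1, CCNB2 and BIRC5. CCND1 was higher in AOC by 5.45 (SE 0.25, adjusted p = 5.66e-09), CCNE2 by 1.46 (SE 0.20, adjusted p = 7.49e-05) and CDK6 by 0.93 (SE 0.26, adjusted p = 0.01). CDK4 was higher by 0.59 (adjusted p = 0.0494), a call lost in 4 of 6 fits with 1 library left out, IEC12 replicate A among them, and in 11 of 14 alternatives. CCND2 did not pass the test at -0.36 (SE 0.15, adjusted p = 0.0619), with no overlap. CCNB2 was higher by 0.68 (SE 0.12, adjusted p = 0.000428). BIRC5 was higher by 0.44 (adjusted p = 0.0357), which was lost without IEC12 replicate A or without any 1 of the AOC replicates.

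The lower genes were mostly of the kinetochore, spindle and nucleotide supply. TYMS was at -1.32 (SE 0.14, adjusted p = 8.84e-06), and RRM1 was at -0.79 (SE 0.22, adjusted p = 0.00879). Of the 5 genes of checkpoint and kinetochore 4 were lower, with changes of -0.83 (CENPA) to -1.03 (BUB1B), and BUB1 was at 0.07 (adjusted p = 0.712). NUSAP1 was at -1.14 (SE 0.13, adjusted p = 1.67e-05), KIF11 at -1.02 and TOP2A at -0.80. MCM3 was at -1.03 (SE 0.20, adjusted p = 0.000899) and MCM6 at -0.59, which with median-of-ratios scaling was not called. MYBL2 was at -0.20 (adjusted p = 0.495), and without IEC12 replicate A it was called lower at -0.51 (adjusted p = 0.0239). AURKB was at -0.44 (adjusted p = 0.044), with overlapping libraries, and this call was lost in 5 of 6 fits with 1 library left out. CCNB1 and CDK1 differed by 0.01 (SE 0.11, adjusted p = 0.947) and -0.01 (SE 0.18, adjusted p = 0.978), and their libraries overlapped.

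**Figure D5:**
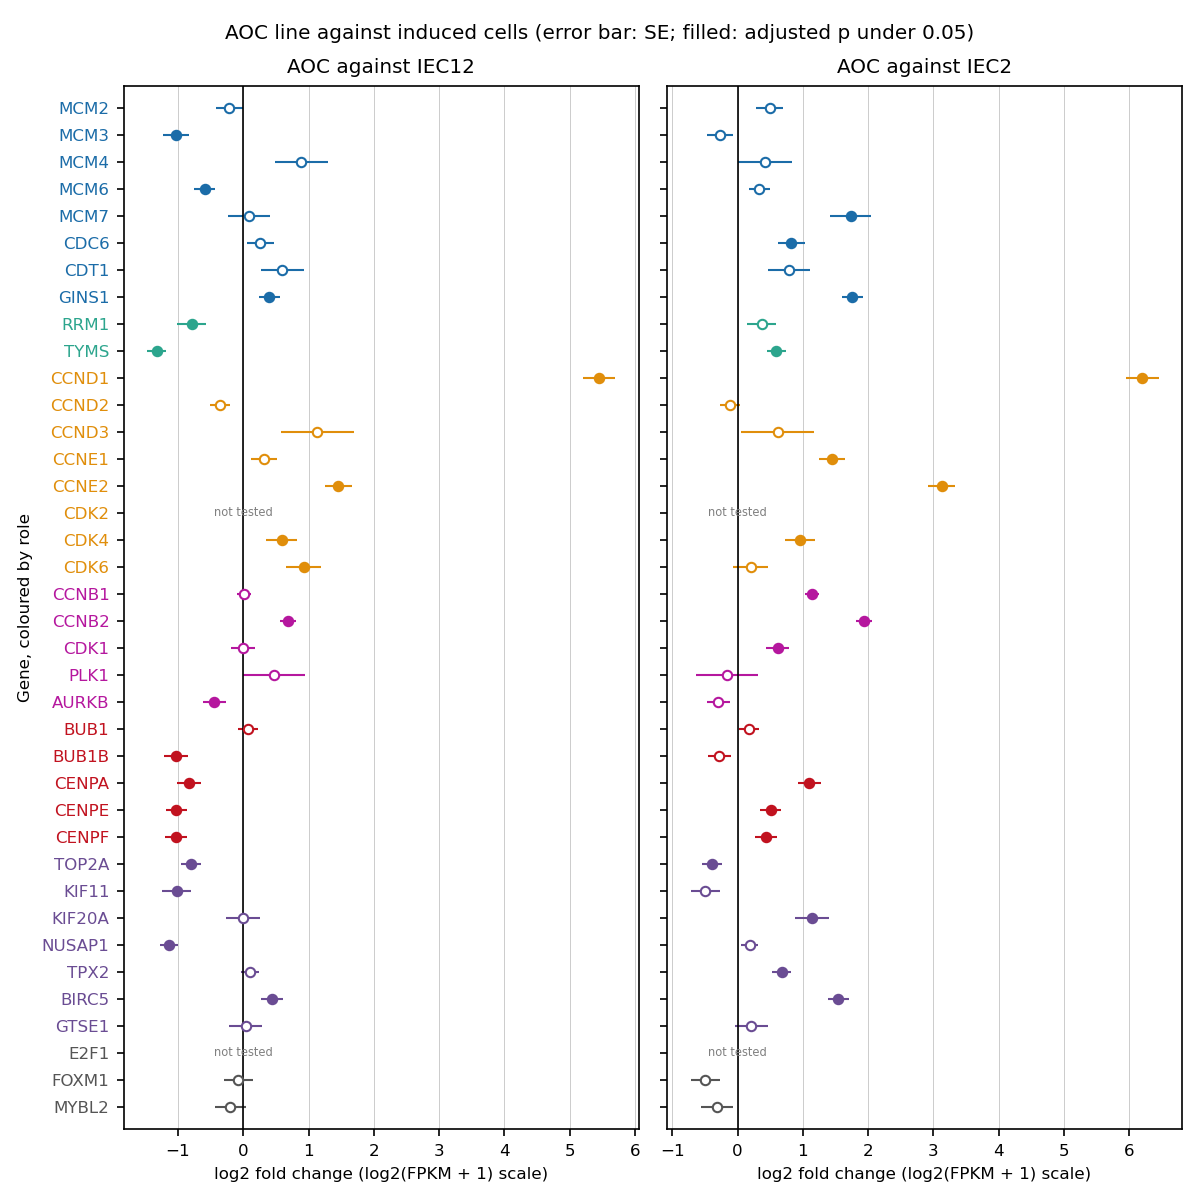
Points give the log2 fold change of each gene on the log2(FPKM + 1) scale, with the limma SE as bars, for AOC against IEC12 on the left and AOC against IEC2 on the right, and filled points passed an adjusted p of 0.05. CCND1 lies at 5.45 and 6.20, and the kinetochore genes CENPA, CENPE and CENPF lie left of 0 against IEC12 and right of 0 against IEC2. Of the checkpoint kinases, BUB1B lies left of 0 in both panels and BUB1 right of 0 in both.

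Against the earlier days AOC was higher at more genes. In AOC against IEC4, 16 of 36 genes were higher and 3 lower, with 22.1% higher and 47% lower over all genes tested (69.1% in either direction). The lower genes were TYMS, RRM1 and FOXM1. Groups did not overlap at 17 higher and 6 lower genes, against 23.8% and 52.3% over all genes. Median-of-ratios scaling, which moved the median of all genes from -0.45 to -0.05, gave 25 higher and 1 lower, and equal totals 13 and 7. In AOC against IEC2, 17 were higher and 1, TOP2A, lower, with 26.7% higher and 37.1% lower over all genes (63.8% in either direction). Groups did not overlap at 20 higher and 3 lower genes, against 29.9% and 41.6% over all genes. Median-of-ratios scaling gave 22 and 0, and equal totals 10 and 7. The calls of GTSE1 and FOXM1 against IEC4 were lost without AOC replicate B, that of CENPE against IEC2 without AOC replicate C, and those of CENPF and TOP2A against IEC2 without AOC replicate A, among others. The 3 comparisons share the AOC libraries.

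Most changes were of moderate size. When an absolute log2 fold change of at least 1 was also asked for, 7 genes were called in IEC4 against IEC2, with 18.3% over all genes tested. The same limit left 15 in IEC12 against IEC4 (22.6% over all genes) and 14 in IEC12 against IEC2 (21.4%). For AOC it left 9 against IEC12 (32.6%), 9 against IEC4 (42%) and 10 against IEC2 (39%). The study chose genes between iPS cells and AOC at an adjusted p under 0.001 with a log2 fold change above 3. Here these limits were put on other comparisons, fitted with limma on log2(FPKM + 1). Between days they were passed by 0 genes. Of all genes 1.18%, 0.939% and 1.22% passed in IEC4 against IEC2, IEC12 against IEC4 and IEC12 against IEC2. In these comparisons 15, 25 and 25 members had an unadjusted p under 0.05. In AOC the limits were passed by 1 gene against IEC12 (4.41% of all genes), 1 against IEC4 (5.17%) and 2 against IEC2 (5.47%). CCND1 passed in all 3 comparisons with AOC, and CCNE2 in the last.

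The remaining genes of the same machinery were described by 4 further lists. Of 39 other replication genes found, 38 were tested. In IEC4 against IEC2, 9 were higher (23.7%) and 5 lower (13.2%), close to the 24.8% and 12.5% over all genes. In IEC12 against IEC4, 12 were higher (31.6%, against 17.3%) and 1 lower (2.63%, against 26.9%), and in AOC against IEC12 5 were higher (13.2%, against 22.4%) and 12 lower (31.6%, against 36.2%). GINS4, of the same complex as GINS1, rose by 1.54 (SE 0.29, adjusted p = 0.00276) to 7.91 FPKM by day 4. RFC1 and MCM10 went the other way and were called lower by day 4. RPA3, which coats single-stranded DNA, rose by 1.40 (SE 0.15, adjusted p = 0.000134) from IEC4 to IEC12, and LIG1, the ligase of Okazaki fragments, fell by 1.58 (SE 0.53, adjusted p = 0.0361). In AOC the origin recognition gene ORC5 was at -1.62 (SE 0.13) against IEC12, and GMNN, the inhibitor of CDT1, was higher by 1.03 (SE 0.12).

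Of 56 other mitotic genes tested, 5 were higher (8.93%) and 16 lower (28.6%) by day 4, against 24.8% and 12.5% over all genes. In IEC12 against IEC4, 39 were higher (69.6%, against 17.3%) and 0 lower by limma (against 26.9%), with 1 lower at an unadjusted p under 0.05. CENPI, a kinetochore gene, fell by 1.31 (SE 0.14, adjusted p = 0.000137) by day 4, and SGO1, the protector of centromeric cohesion, by 1.02 (SE 0.14). ANLN and SPC24 went the other way and were called higher by day 4. SGO2 rose from a mean of 12.7 to 65 FPKM by day 12, by 2.25 (SE 0.20, adjusted p = 4.7e-05), and CDCA3 from 44.8 to 151. In AOC against IEC12, 15 were higher (26.8%) and 13 lower (23.2%), against 22.4% and 36.2% over all genes, while the 17 members of the 3 mitotic roles had 2 higher and 8 lower. Named here are CKS2, a subunit of cyclin-dependent kinases, at 1.75 (SE 0.25) and WEE1, the kinase that inhibits CDK1, at -1.61 (SE 0.16).

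Of 15 other nucleotide supply genes tested, 1 was higher (6.67%, against 24.8% over all genes) and 1 lower (6.67%, against 12.5%) by day 4. In IEC12 against IEC4, 6 were lower (40%, against 26.9% over all genes) and 9 were not called. By limma 0 were higher, against 17.3% over all genes, with 3 higher at an unadjusted p under 0.05. MTHFD2, a mitochondrial enzyme of folate metabolism, had means of 183, 325 and 77.2 FPKM in IEC2, IEC4 and IEC12 and fell by 2.04 (SE 0.20, adjusted p = 8.84e-05) in the last step. SHMT2, which acts beside it, fell by 1.60 (SE 0.33, adjusted p = 0.00409). In AOC against IEC12, DUT, which removes dUTP, was higher by 2.33 (SE 0.22), and the purine synthesis genes GART and PAICS were at -1.81 (SE 0.30) and -1.66 (SE 0.11).

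Of 14 tested RB, E2F and DREAM factors, 3 were higher (21.4%, against 24.8% over all genes) and 1 lower (7.14%, against 12.5%) by day 4. In IEC12 against IEC4, 3 were higher (21.4%, against 17.3%) and 2 lower (14.3%, against 26.9%). In AOC against IEC12, 0 were higher by limma (against 22.4%), also at an unadjusted p under 0.05. In the same comparison 6 were lower (42.9%, against 36.2%), and all these shares rest on few genes. RB1, the retinoblastoma protein, had means of 11.8, 5.06, 10.5 and 2.96 FPKM in IEC2, IEC4, IEC12 and AOC. RB1 fell by 1.08 (SE 0.23, adjusted p = 0.00536), rose by 0.91 (SE 0.23, adjusted p = 0.0108), and was at -1.53 (SE 0.22, adjusted p = 9.89e-05) in AOC against IEC12. E2F4, an E2F factor that acts with RB relatives, rose by 0.82 (SE 0.27, adjusted p = 0.0385) by day 4.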

How the data were processed

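Libraries had been made by Smart-Seq2 amplification and sequenced on an Illumina HiSeq instrument, per the labels and the study's methods. The authors processed the reads in Galaxy, and for each library they deposited FPKM values by Ensembl gene. The submitters' processing notes name Bowtie2 2.2.3, TopHat2 2.0.12, Cufflinks 2.2.1 and the build susScr11. The annotation is not given in the sources used here. Values come with no counts, so no interval or floor from depth is given.

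Groups and replicate letters came from the sample titles. Genes that reached an FPKM of 1 in 3 or more of the libraries fitted were analysed with limma 3.58.1 (R 4.3.3) on log2(FPKM + 1), with the variance tied to mean expression and Benjamini-Hochberg adjustment over all genes tested. The 3 days were compared in the 9 IEC libraries, and AOC in all 12. Pandas 2.3.3 and matplotlib 3.10.9 were used for summaries and figures. The limma step was tested on simulated data.

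The members and lists were chosen with earlier results of these data known. Library values were set to be printed for MKI67 and PCNA (not found), TOP2A and, in each role, for the 2 members that changed most in IEC4 against IEC2, IEC12 against IEC4 and AOC against IEC12. Of each further list, genes named are among the 2 largest called changes in each direction without overlap of groups. Positions are those of RefSeq Sscrofa11.1. The alternatives tried were a pseudocount of 0.1, no filter, other scalings, other groups in the fit, an untied variance, the replicate letter as a block, stricter calls and each library left out.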

Additional observations from a re-analysis of the deposited data

How the results depend on the processing

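Counts of genes called are given for IEC4 against IEC2, IEC12 against IEC4, IEC12 against IEC2, AOC against IEC12, AOC against IEC4 and AOC against IEC2, in that order, where limma called 12, 23, 22, 19, 19 and 18. Also asking for an absolute log2 fold change of at least 1 gave 7, 15, 14, 9, 9 and 10. The limits that the study used between iPS cells and AOC were p and adjusted p under 0.001 and a log2 change beyond 3 either way. Here they gave 0, 0, 0, 1, 1 and 2, where 15, 25, 25, 20, 19 and 22 genes had an unadjusted p under 0.05. With 1 library left out the counts ran from 8 to 12, 18 to 24, 17 to 24, 15 to 20, 17 to 20 and 16 to 18. Of the calls, 8, 18, 17, 15, 17 and 15 were kept in every fit with 1 library left out, and 8, 16, 14, 14, 14 and 10 in all alternatives at the same limit. BUB1B, which at -0.10 was not called in AOC against IEC4, was called higher at 0.39 (adjusted p = 0.0399) with median-of-ratios scaling, and the cause was not tested. For single genes 1876 of 2099 alternatives kept direction and side of the threshold. The replicate block gave 9, 22, 22, 15, 19 and 18 calls and lost TPX2, CENPF and GINS1 in the first comparison, BUB1 in the second, CDK4, AURKB, GINS1 and BIRC5 in the fourth and CENPF in the last. Whether replicate letters pair the libraries cannot be settled with 3 libraries in a group. Deviations of same-lettered libraries correlated at -0.01, -0.09, 0.16, -0.27, 0.05 and -0.08 on average. Each library of both groups was matched to those of the other group. The best match had the same letter in 1, 0, 4, 0, 5 and 1 cases. Planned motif shares of promoters were not run. The FPKM files hold no counts, so counting error could not be separated from the spread of replicates.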
